A study of Homo sapiens with 4 samples.

Results

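KP4 cells, a human line of pancreatic ductal adenocarcinoma, were compared under one and the same drug exposure: cells carrying the label E5 against control cells, both given FOLFIRINOX for 96 h. The comparison rests on 2 of the 4 GEO samples, each with 3 numbered count columns, so 6 of the 12 columns, and it was read across 60651 genes, of which 15636 passed the filter on low counts. All groups were KP4 cells kept in DMEM with 10% FBS. The FOLFIRINOX groups received 25 nM SN-38, 10 µM of an agent the labels write as 5-F and 5 µM oxaliplatin, and the vehicle groups, used below only for reference, received DMSO for 96 h. The design text describes E5 cells as having gone through 5 cycles of treatment with DMSO or FOLFIRINOX, and the labels do not settle which of these the E5 vehicle cells had met earlier. Columns of a sample were treated as libraries with n = 3. No label says that the columns stand for separate cultures, so the p-values measure the spread between columns of 1 sample per group, which may be technical. A clone, or a pool of surviving cells, is not stated for E5.

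FOLFIRINOX joins 3 kinds of damage. SN-38, the active form of irinotecan, traps topoisomerase I on DNA, oxaliplatin crosslinks DNA, and fluorinated pyrimidines deplete thymidylate and enter nucleic acids. Cells that persist under such drugs are known to differ in drug export, detoxification, cell cycling, damage signalling and interferon output, and the gene lists below follow these roles. The comparison asks how cells that had been through the repeated cycles differ from control cells when both meet the drugs.

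The 6 libraries held between 7359034 and 19118134 gene reads, the control library numbered 1 being the shallowest of the 6. All 8 pancreatic ductal markers were detected in both groups, their summed level lying between 494 and 548 CPM in control and between 905 and 1000 CPM in E5 libraries (CPM, the usual count scaled to library size, here with TMM factors). CDH1 and EPCAM, which define epithelium, stood near the bottom of that list at 0.304 and 1.2 CPM in control cells and at 0.491 and 0.445 CPM in E5 cells. Markers of acinar and endocrine cells were at 0 for 4 of 5 genes in both groups. Summed fibroblast markers ranged from 2.9 to 3.57 CPM in control and from 8.99 to 11 CPM in E5 libraries, of which COL1A1 made up 2.66 and 9.47 CPM on average. For endothelial markers the sums were 0.9 to 1.34 CPM and 2.0 to 2.79 CPM, in the same order. The part of these markers in the results below was not tested.

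Of the 15636 genes tested, 8488 (54.3%) passed an adjusted p of 0.05 in edgeR's quasi-likelihood test with Benjamini-Hochberg adjustment, which underlies every adjusted p below. E5 cells were higher for 4170 genes (26.7%) and lower for 4318 (27.6%). On the authors' FPKM scale, tested with limma on log2(FPKM + 0.1), the split was 2605 higher and 4648 lower, and the median over all tested genes stood at -0.133 against -0.012 on the count scale (log2). At least 2-fold differences were called for 1235 genes (7.9%) higher and 1096 (7.01%) lower in E5. The median size of a log2 fold change was 0.34. Counts given for gene lists below are to be read against the 26.7% higher and 27.6% lower of all tested genes. The plot of mean level against fold change shows that the large differences reached from barely detected genes to some of the most abundant transcripts.

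**Figure D1:**
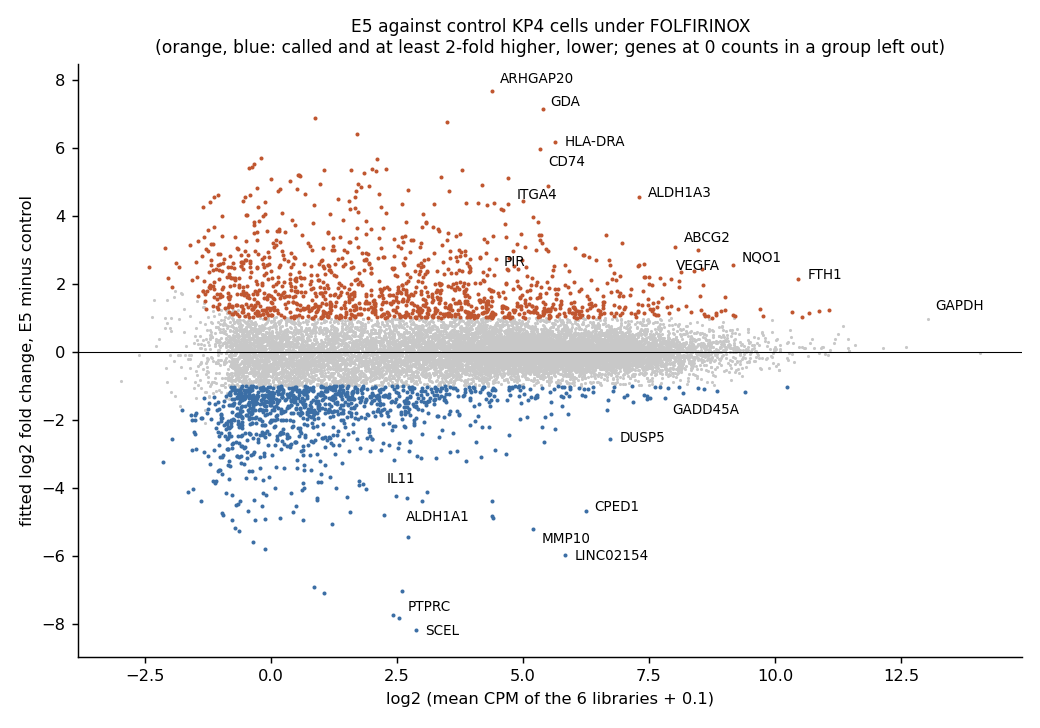
Fitted log2 fold change of E5 over control cells under FOLFIRINOX (vertical axis) against the log2 of the mean CPM of the 6 libraries plus 0.1 (horizontal axis), 1 point per tested gene, 15619 genes. Orange and blue points passed the adjusted p threshold with at least 2-fold higher or lower values in E5, grey points did not, and 17 genes at 0 counts in a group are left out. HLA-DRA, at 6.17, and SCEL, at -8.16, lie near the ends of the range.

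The genes furthest apart were switched nearly off in one group of cells. ARHGAP20, a GTPase-activating protein, was measured at 0.129, 0.0992 and 0.334 CPM in the control libraries and at 42.7, 41.5 and 41.2 CPM in the E5 libraries (log2 fold change 7.68 ± 0.48 SE, adjusted p = 2.2e-15). GDA, the guanine deaminase, went from 0.514, 0.446 and 0.78 CPM in control to 83.2, 82.9 and 84.3 CPM in E5 cells (7.13 ± 0.28, adjusted p = 1.4e-16). Both genes separate the groups by far more than their libraries vary. AQP4, a water channel, had 0 counts in all 3 control libraries and 6.3, 6.84 and 5.92 CPM in E5, which is at least 96.9-fold higher against a floor of 3 counts over the control group. NRXN3, a neuronal adhesion protein, was at 0, 0.149 and 0.334 CPM in control and at 22.3, 23.4 and 21.2 CPM in E5 libraries. VCAM1, an adhesion receptor for leukocyte integrins, stood at a mean of 0.24 ± 0.242 (SD) CPM in control and at 7.58 ± 0.242 in E5 cells, and P2RY6, a receptor for UDP, at 0.156 ± 0.0879 and 5.68 ± 0.689 CPM. The groups did not overlap for any of these 6 genes. The same held for 2279 of the 2331 genes called at least 2-fold apart, so absence of overlap is the rule among such genes. Its share over all tested genes was not counted.

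On the other side, E5 cells had nearly lost several control transcripts. SCEL, which encodes sciellin of the cornified envelope, was at 16.6, 11.1 and 15.7 CPM in control and at 0.0517, 0 and 0.0644 CPM in E5, a ratio of control to E5 of 338 with a counting interval of 93.1 to 2790. PTPRC, which encodes the leukocyte phosphatase CD45, was at 13.2, 9.43 and 11.5 CPM in control and at 0.103, 0 and 0 CPM in E5 libraries (ratio 267, counting interval 73.4 to 2210). The leukocyte marker sum ran from 10.3 to 14.4 CPM in control, most of it PTPRC, and from 0.465 to 0.901 CPM in E5 libraries, where CD14 had the highest mean of the list. CD14, below the filter on low counts, stood at 0.226 CPM in control and 0.426 CPM in E5 cells. ITGAM, which passed the filter as PTPRC did, was lower in E5 cells, at 0.794 and 0.161 CPM (log2 fold change -2.17 ± 0.57, adjusted p = 0.00038). CD3E was at 0 in both groups. In bulk RNA, fewer cells that carry a transcript and less transcript per cell cannot be told apart. SULT1B1, a sulfotransferase, was at 10.5 ± 1.61 CPM in control and at 0.041 ± 0.0368 in E5 cells (ratio 255, counting interval 70.3 to 2120). RAB34, a small GTPase, stood at 11.9 ± 1.19 and 0.0797 ± 0.0208 CPM (log2 fold change -7.04 ± 0.77). CPED1 was at 158, 125 and 155 CPM in control and at 5.37, 4.7 and 7.08 CPM in E5 (-4.67 ± 0.13, adjusted p = 1.4e-14). MME, the membrane endopeptidase neprilysin, was at 39.7 ± 4.84 and 1.9 ± 0.156 CPM (-4.38 ± 0.17). IL13RA2, a decoy receptor for interleukin 13, CAPG, an actin-capping protein, and ZNF334 had log2 fold changes of -4.8, -4.71 and -5.05.

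The authors' annotation, on GRCh38, places HLA-DRA at chr6:32439878-32445046, ABCG2 at chr4:88090150-88231628, ALDH1A3 at chr15:100877714-100916626, MMP10 at chr11:102770502-102780628 and GADD45A at chr1:67685201-67688334. Values are per gene, so no isoform or untranslated region is resolved.

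Large differences were also called for noncoding genes. LINC02154 was at 108, 116 and 114 CPM in control and at 1.4, 2.07 and 2.06 CPM in E5 cells (log2 fold change -5.96 ± 0.22, adjusted p = 4.8e-14). TRHDE-AS1, LINC02228 and AC010343.3 had log2 fold changes of -5.44, -4.23 and -3.99. Higher in E5 were NMRAL2P, a pseudogene, at 5.37, MSC-AS1 at 4.75, AL136131.3 at 3.65 and LINC01602 at 2.93. AL136131.3 (chr6:43770429-43770616) lies within the span of VEGFA (chr6:43770184-43786487), a coding gene that was itself higher, at 2.99. Whether reads of VEGFA entered its count was not tested. MSC-AS1 and TRHDE-AS1 are antisense genes. The count table is named as stranded, but the library protocol in the labels does not say how strand was kept.

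Measured as a difference in CPM, the transcripts that gained most in E5 cells were glycolytic and redox genes. GAPDH stood at 5560, 5980 and 5430 CPM in control and at 11600, 11300 and 10500 CPM in E5 libraries (log2 fold change 0.98 ± 0.059, adjusted p = 4.3e-10). FTH1, the iron-storing ferritin heavy chain, was at 504, 554 and 518 CPM in control against 2380, 2270 and 2260 CPM in E5 (2.13 ± 0.057, adjusted p = 2.1e-14). LDHA, which makes lactate, was at 1300 ± 43 and 3030 ± 166 CPM (SD). These 3 genes have processed pseudogenes, so their counts depend on how multimapping reads were set aside. TXNRD1, the thioredoxin reductase, stood at 1130 ± 33.6 and 2600 ± 62.3 CPM, and PKM, the pyruvate kinase, at 1020 ± 66.4 and 2250 ± 174 CPM. ENO1, the enolase of glycolysis, stood at 1930 ± 103 and 3260 ± 200 CPM. Losses were led by ODC1, the first enzyme of polyamine synthesis, at 1580, 1640 and 1620 CPM in control and 837, 799 and 753 CPM in E5 cells (-1.02 ± 0.05, adjusted p = 3.7e-11). KPNA2, a nuclear import receptor, was at 932 ± 42.2 and 416 ± 19.5 CPM, and ETS1, a transcription factor, at 638 ± 14.3 and 289 ± 9.34 CPM. DDX21, an RNA helicase of the nucleolus, stood at 1290 ± 144 and 884 ± 51.8 CPM, and CDV3 at 810 ± 36.2 and 493 ± 7.78 CPM.

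**Figure D2:**
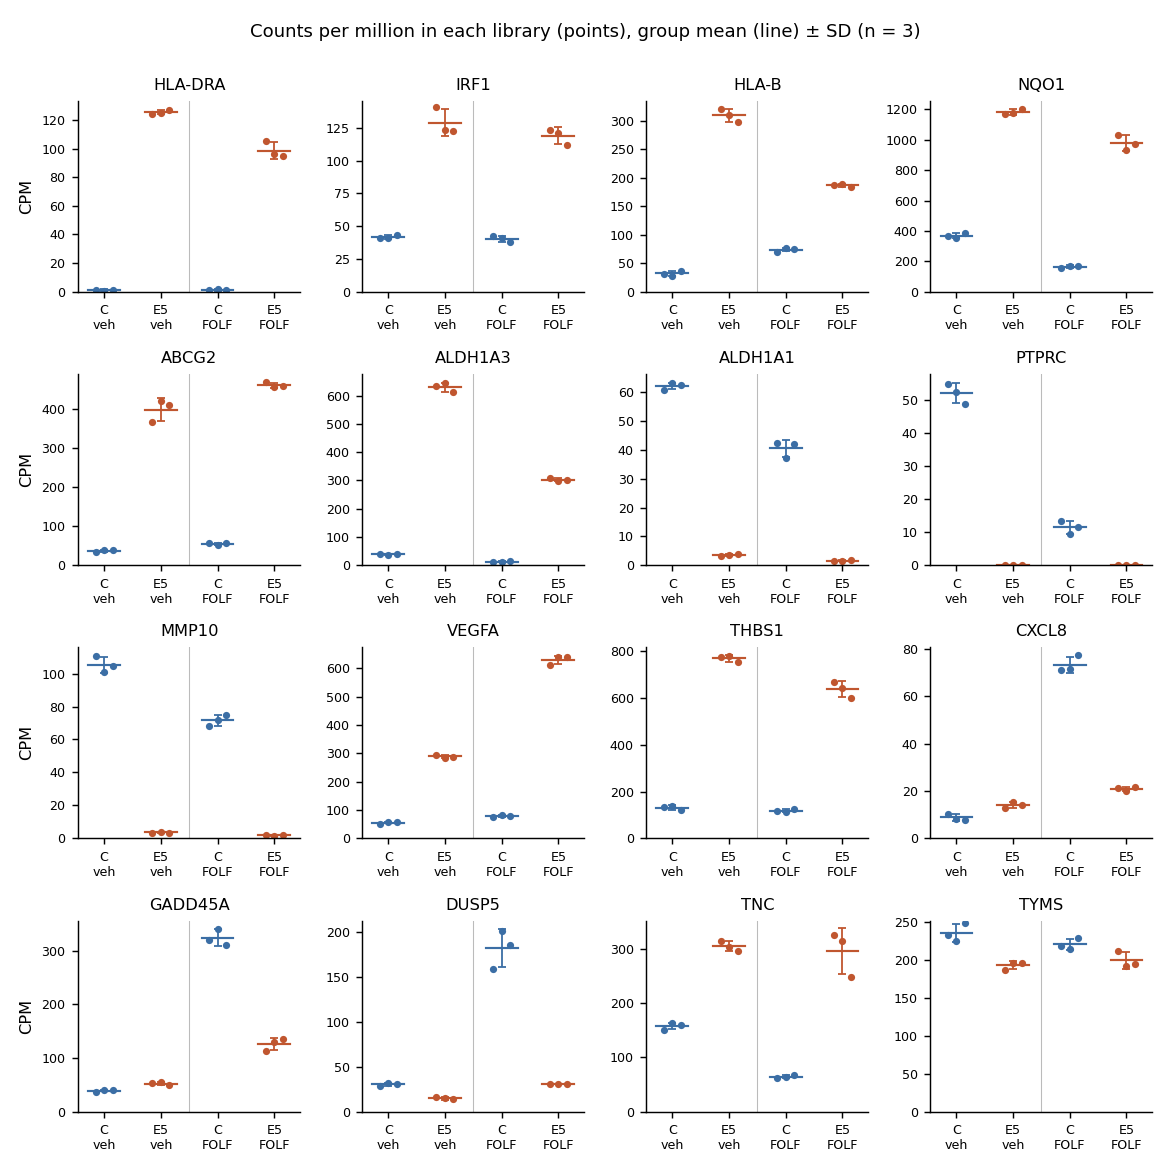
CPM (vertical axes, starting at 0) in each of the 12 libraries for 16 genes, with control (C, blue) and E5 cells (orange) under vehicle (veh) on the left and FOLFIRINOX (FOLF) on the right of each panel. Lines are group means and bars are SD over 3 libraries. Under FOLFIRINOX the E5 and control libraries do not overlap in any panel, and TYMS shows the smallest separation.

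MHC class II molecules show peptides from the endosomal route to CD4 T cells and are made by few epithelial cells unless their master regulator CIITA is active. Under FOLFIRINOX, E5 cells were higher for 14 and lower for 1 of 16 tested class II genes, 13 of them by at least 2-fold, with a list median of 4.45 on the log2 scale against -0.01 for all tested genes. CIITA itself was at 0.386, 1.54 and 1 CPM in control and at 17.4, 14.8 and 14.9 CPM in E5 libraries (3.8 ± 0.25, adjusted p = 6.7e-11). HLA-DRA, the alpha chain of HLA-DR, was at 0.9, 1.69 and 1.23 CPM in control and at 105, 95.9 and 94.6 CPM in E5 (6.17 ± 0.19, adjusted p = 3e-15). CD74, the invariant chain that guards the peptide groove, was at 1.8, 1.14 and 1.17 against 81.4, 80.8 and 75.1 CPM (5.95 ± 0.19, adjusted p = 1.8e-15). All 3 genes were low but detected in every control library and far higher in every E5 library. HLA-DRB1, HLA-DRB5 and HLA-DPA1 followed at 4.92, 5.35 and 4.37, while HLA-DQB1, with 0 counts in control cells, was at least 34.4-fold higher. HLA-DPB1 stood at a mean of 0.078 CPM in control and 6.31 CPM in E5 (ratio 95.9, counting interval 32.5 to 468). The peptide exchanger subunits HLA-DMA and HLA-DMB were at 2.32 and 5.18, and CTSS, the protease that trims CD74, at 2.1. Subunits of the RFX complex, which binds class II promoters together with CIITA, differed little: RFXANK was at 0.48 and RFXAP at -0.35, both called, and RFX5 at 0.07 was not (adjusted p = 0.34). HLA genes are close copies that vary between people and lines, so the split of reads between them is uncertain.

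Class I molecules present peptides from the cytosol on nearly all cells. E5 cells were higher for 19 of 22 genes and lower for 1, with a median log2 fold change of 1.07. HLA-B was at 70.5, 76.2 and 74.9 CPM in control and at 187, 189 and 184 CPM in E5 libraries (1.33 ± 0.074, adjusted p = 1.7e-10). B2M, the light chain of all class I molecules, was at 391, 368 and 395 against 831, 738 and 836 CPM (1.06 ± 0.058, adjusted p = 1.4e-10). Neither gene overlapped between the groups. The immunoproteasome subunits PSMB8, PSMB9 and PSMB10 were at 1.2, 1.36 and 2.07, the peptide transporter chains TAP1 and TAP2 at 0.8 and 0.88, and the trimming peptidase ERAP2 at 1.63. For PSMB10 the value rested on means of 1.27 and 5.36 CPM, and its mean FPKM, 12.6 and 19.5, stood closer together. HLA-F, a class I molecule of low abundance, was at 2.04 ± 0.266 CPM in control and 6.83 ± 0.707 CPM in E5 cells. CALR, a chaperone shared with the secretory route, was the member that was lower, at -0.32.

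**Figure D3:**
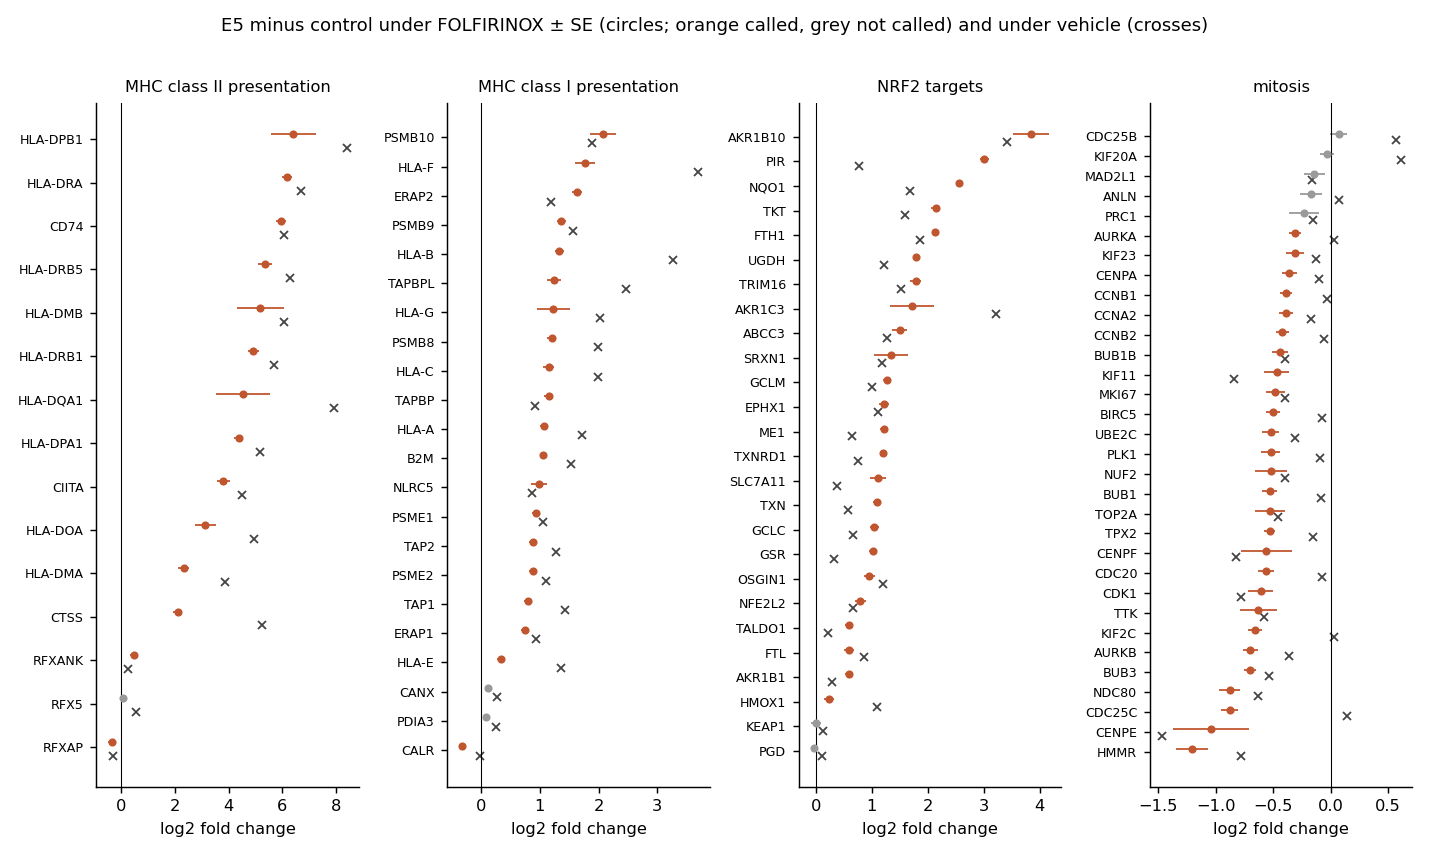
Log2 fold changes of E5 over control cells (horizontal axes) for tested members of 4 gene lists, 1 row per gene. Circles give the FOLFIRINOX contrast with its SE, orange where called, and crosses the same contrast under vehicle. Most class II members lie between 2 and 6.41 while 27 of 32 mitosis genes are called below 0; HLA-DQB1 is left out because its control libraries had 0 counts.

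Interferons act through receptors and transcription factors, IRF9 among them, on a shared set of antiviral genes. Of 40 tested interferon-stimulated genes, 35 were higher in E5 cells and 2 lower, 25 of them by at least 2-fold, and the list median was 1.34. OAS2, an enzyme that primes RNA decay, stood at 0.257, 0.149 and 0.223 against 8.32, 7.91 and 8.11 CPM (5.31 ± 0.49, adjusted p = 3.8e-12). IFITM3, which blocks viral entry and has close copies next to it in the genome, was at 72.7, 88.6 and 67.1 against 335, 369 and 330 CPM (2.17 ± 0.099, adjusted p = 1.7e-11). In both genes all E5 libraries exceeded all control libraries. SAMD9L and TRIM22, both near absent from control cells, had log2 fold changes of 5.68 ± 0.72 and 5.34 ± 0.73. For TRIM22 the mean FPKM, 0.143 in control and 1.81 in E5 cells, stood closer together. LGALS3BP, a secreted glycoprotein, was at 23.2 ± 1.45 CPM in control and at 152 ± 9.4 CPM in E5 cells. Not all members followed. HERC5, the ligase that attaches ISG15, was at 49.2 ± 3.29 and 38.5 ± 2.07 CPM (-0.35 ± 0.07), and IFI27 at 0.648 and 0.338 CPM was the other lower gene. IRF7 stood at 7.35 and 7.73 CPM, USP18, which restrains the receptor, at 3.4 and 2.72 CPM, and ISG20 at 6.26 and 6.33 CPM, all 3 short of the threshold.

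Among sensors of nucleic acids and interferon signalling parts, 17 of 22 were higher and 1 lower in E5 cells (median 0.48). IRF1 was at 42.2, 41.3 and 37.8 CPM in control and at 124, 122 and 112 CPM in E5 libraries (1.56 ± 0.073, adjusted p = 1.9e-11). IFI16, a sensor of DNA, stood at 51.9 ± 5.7 and 142 ± 11.1 CPM, without overlap. The RNA sensors IFIH1 and TLR3 were at 1.28 and 1.44, CGAS at 0.51 and DHX58 at 2.08, whereas RIGI at -0.03 and STING1 at -0.06 did not pass the test. DHX58 was at means of 0.589 and 2.7 CPM, and its mean FPKM, 0.593 and 1.54, stood closer together. IFNB1 and the lambda interferons IFNL1, IFNL2 and IFNL3 lay below the filter on low counts, so no contrast was fitted for them.

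Promoters of 2 members of this list are shown because their genes were abundant, changed by more than 4-fold and hold the core of the interferon-stimulated response element. They were picked after the values were seen, and come from RefSeq (GRCh38.p14, minus strand of the genome, printed 5′ to 3′ along the gene from 250 bases before to 50 after the start). The capitals mark matches to GAAANNGAA, searched on both strands. For IFITM3 (chr11:320811-321110) 2 matches begin at bases 199 and 216, and for LGALS3BP (chr17:78979874-78980173) 1 match begins at base 193.
IFITM3: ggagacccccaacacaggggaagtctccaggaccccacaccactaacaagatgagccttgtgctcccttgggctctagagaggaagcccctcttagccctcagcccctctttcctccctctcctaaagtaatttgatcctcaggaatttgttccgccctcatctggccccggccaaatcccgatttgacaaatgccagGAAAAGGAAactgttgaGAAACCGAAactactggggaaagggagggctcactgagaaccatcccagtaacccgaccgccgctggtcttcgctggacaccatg
LGALS3BP: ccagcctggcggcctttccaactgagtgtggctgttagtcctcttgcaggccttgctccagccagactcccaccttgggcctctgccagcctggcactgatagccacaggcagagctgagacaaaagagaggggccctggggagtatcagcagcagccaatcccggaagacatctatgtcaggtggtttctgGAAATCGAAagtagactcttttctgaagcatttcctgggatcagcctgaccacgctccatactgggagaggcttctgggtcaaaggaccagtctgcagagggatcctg
Of the 33 list members with an entry, 23 (69.7%) held this motif, against 8.29% of all 27305 promoters of the same length. A match describes letters and is not a measured binding site.

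NRF2, encoded by NFE2L2 and held in check by KEAP1, drives genes that make glutathione, reduce quinones and supply NADPH. All but 2 of 27 tested targets were called, every one of these 25 higher in E5 cells, 19 by at least 2-fold, with a median of 1.22. NQO1, the quinone reductase, was at 156, 170 and 170 CPM in control and at 1030, 933 and 971 CPM in E5 libraries (2.56 ± 0.056, adjusted p = 2.4e-15). PIR, pirin, was at 8.1, 8.63 and 8.47 against 68.8, 67.5 and 67.8 CPM (3.01 ± 0.079, adjusted p = 1.1e-14). AKR1B10, an aldo-keto reductase, stood at 0.643, 0.446 and 0.39 against 6.93, 6.05 and 7.15 CPM (3.85 ± 0.32, adjusted p = 3.6e-10). The groups were far apart in all 3. TKT, the transketolase of the pentose phosphate pathway, stood at 90.8 ± 9.78 and 402 ± 31 CPM, whereas PGD of the same pathway, at -0.02, did not pass the test. The glutathione synthesis subunits GCLC and GCLM were at 1.05 and 1.27, and the cystine carrier SLC7A11 at 1.11. NFE2L2 itself was at 174 ± 23.6 CPM in control and 301 ± 46.1 CPM in E5 cells (0.8 ± 0.1), while KEAP1 at 51.6 and 52 CPM overlapped between the groups. HMOX1, the heme oxygenase, had the smallest called difference of the list, with 99.2 ± 10.5 and 117 ± 1.29 CPM (0.24 ± 0.082, adjusted p = 0.021).

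NRF2 binds antioxidant response elements, whose core reads TGACNNNGC. This list had the largest share of members changed by at least 2-fold among the 3 lists with a searched motif, so the promoters of its 3 strongest called genes that hold the core are printed (RefSeq, GRCh38.p14, all on the minus strand, 300 bases each along the gene, with the match on either strand in capitals). PIR (chrX:15493284-15493583) and GCLM (chr1:93909381-93909680) each hold 1 match on the opposite strand, beginning at bases 277 and 217, and ME1, the cytosolic malic enzyme (chr6:83431002-83431301), holds 2, at bases 114 and 262.
PIR: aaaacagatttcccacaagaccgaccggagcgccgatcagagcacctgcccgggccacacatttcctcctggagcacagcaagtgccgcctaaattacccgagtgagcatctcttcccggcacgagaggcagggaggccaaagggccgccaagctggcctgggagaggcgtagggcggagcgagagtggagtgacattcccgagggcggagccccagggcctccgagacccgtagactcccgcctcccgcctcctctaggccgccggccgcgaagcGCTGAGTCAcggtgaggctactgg
GCLM: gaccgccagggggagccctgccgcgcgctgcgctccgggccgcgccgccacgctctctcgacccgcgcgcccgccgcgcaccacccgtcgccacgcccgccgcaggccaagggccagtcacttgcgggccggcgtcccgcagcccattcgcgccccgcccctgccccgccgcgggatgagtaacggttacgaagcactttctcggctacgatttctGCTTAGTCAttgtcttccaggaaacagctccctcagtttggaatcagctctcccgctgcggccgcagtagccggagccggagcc
ME1: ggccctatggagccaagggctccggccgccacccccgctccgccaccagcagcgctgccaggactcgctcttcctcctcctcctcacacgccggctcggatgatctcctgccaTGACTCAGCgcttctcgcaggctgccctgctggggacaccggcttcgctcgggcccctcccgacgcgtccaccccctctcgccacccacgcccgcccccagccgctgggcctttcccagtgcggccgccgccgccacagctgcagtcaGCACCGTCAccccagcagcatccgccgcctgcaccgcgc
The core was found in 6 of the 23 NRF2 list members with an entry (26.1%) and in 13.6% of all promoters of that length. For the AP-1 core TGANTCA the counts were 2 of 18 members of the MAPK list (11.1%) against 7.76% of all promoters. In CPM, GCLM was at 108, 104 and 123 in control and at 261, 258 and 289 in E5 libraries, and ME1 at 46.8, 42 and 49.6 against 115, 99.4 and 108.

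Drug export and aldehyde clearance families leaned higher in E5 cells, and single genes in them differed by far more than the family medians. ABCG2, the pump that carries SN-38 out of cells, was at 56.8, 52.4 and 55.4 CPM in control and at 468, 455 and 460 CPM in E5 libraries (3.07 ± 0.064, adjusted p = 2.1e-15). Every E5 library held over 8 times the highest control value. Across the family of ABC drug pumps, 7 of 11 were higher and 1 was lower in E5 cells (median 0.57). ABCC3 stood at 7.49 ± 1.64 and 22.1 ± 1.91 CPM, ABCC1 at 62.2 ± 3.44 and 93.7 ± 9.79 CPM and ABCC2 at 9.2 ± 0.109 and 12.4 ± 0.34 CPM. ABCB1, the multidrug pump P-glycoprotein, remained low at 0.855 ± 0.195 and 1.92 ± 0.103 CPM (1.24 ± 0.28). ABCC5, which exports nucleotide analogues, was lower at -0.46.

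Aldehyde dehydrogenases exchanged places. ALDH1A1 was at 42.6, 37.2 and 41.9 CPM in control and at 1.29, 1.42 and 1.61 CPM in E5 cells (-4.81 ± 0.18, adjusted p = 3.6e-15). ALDH1A3, which makes retinoic acid as ALDH1A1 does, was at 11.4, 12.6 and 13.9 against 308, 299 and 301 CPM (4.56 ± 0.074, adjusted p = 1.2e-16). Both moved by more than 20-fold in opposite directions with no overlap. ALDH3A2, which clears fatty aldehydes, stood at 115 ± 3.1 and 432 ± 16.4 CPM (1.91 ± 0.05). In the whole family 9 of 16 were higher and 3 lower, with a median of 0.4.

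The targets and processing enzymes of the 3 drugs showed smaller differences. TOP1, the target of SN-38, was at 571, 511 and 592 CPM in control and at 313, 335 and 378 CPM in E5 libraries (-0.71 ± 0.071, adjusted p = 3.3e-07). TOP2A stood at 1430, 986 and 1440 against 782, 890 and 995 CPM, where 1 E5 library exceeded 1 control library (-0.53 ± 0.13, adjusted p = 0.0021). SLFN11, which stalls replication in damaged cells, was at 21.8 ± 1.84 and 31.9 ± 2.26 CPM (0.57 ± 0.081). CES2, which releases SN-38 from irinotecan, was at 25.3 and 25.4 CPM and did not pass the test, and UGT1A6 of the glucuronidating family lay below the filter, at 0 counts in control and at 0.0452 CPM in E5 cells. Over the list for topoisomerases and SN-38, 1 of 15 was higher and 6 were lower.

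For fluoropyrimidine handling, 3 of 24 genes were higher and 9 lower (median -0.07). UPP1, a uridine phosphorylase that can activate fluorouracil, was at 678, 785 and 693 CPM in control and at 421, 409 and 389 CPM in E5 cells (-0.82 ± 0.069, adjusted p = 3e-08). DPYD, the enzyme that breaks down fluorouracil, was at 64.8, 58.1 and 67.6 against 81.7, 86.3 and 77.9 CPM (0.37 ± 0.074, adjusted p = 0.00043), but on the FPKM scale it was lower in E5, at -0.26. TYMS, the thymidylate synthase, was at 218, 214 and 229 against 212, 192 and 194 CPM (-0.14 ± 0.06, adjusted p = 0.049), and its call was lost under 11 of 16 other settings. TYMP lay below the filter at 0.0702 and 0.155 CPM. SLC29A1, a nucleoside carrier, stood at 61.2 ± 5.4 and 48 ± 2.86 CPM (-0.36 ± 0.081).

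Among genes for platinum, copper and metal binding, 7 of 18 were higher and 4 lower. The copper carrier SLC31A1, through which platinum drugs can enter, was at 60 ± 2.63 and 67.2 ± 2.85 CPM (0.16 ± 0.067, adjusted p = 0.051). ATP7A was at 40.3 ± 3.75 and 51.8 ± 2.56 CPM (0.37 ± 0.082) and ATP7B at 5.1 and 4.88 CPM, not called. MT1E, a metallothionein, was at 5.14, 6.7 and 3.85 CPM in control and at 0.362, 0.142 and 0.257 CPM in E5 cells (-4.27 ± 0.55, adjusted p = 6.7e-08). Metallothionein genes are near copies of each other, and MT1X and MT2A, at 0.14 and 0.31, did not pass the test. GSTM3, a glutathione transferase, was at -1.82 and SLC30A1, a zinc exporter, at 0.96.

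Mitotic genes were lower in E5 cells as a group: 27 of 32 passed in that direction and none in the other, with a median of -0.52. HMMR, a spindle protein, was at 448, 333 and 437 CPM in control and at 143, 167 and 217 CPM in E5 libraries (-1.21 ± 0.14, adjusted p = 1.7e-06). CDC25C, the phosphatase that starts mitosis, was at 68.7, 66.4 and 61.6 against 38.9, 35 and 32.1 CPM (-0.88 ± 0.077, adjusted p = 4.8e-08). CDK1 stood at 305 ± 41.2 and 200 ± 32.3 CPM, MKI67 at 976 ± 58.9 and 701 ± 106 CPM. CENPE overlapped between the groups, at 113 ± 37.5 and 54.7 ± 31.5 CPM (-1.04 ± 0.33, adjusted p = 0.014). CDC25B, KIF20A, MAD2L1, PRC1 and ANLN did not pass the test.

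Replication and repair genes differed less. Of 40 replication genes 5 were higher and 13 lower (median -0.1), led by ORC6, part of the origin recognition complex, at 55.9 ± 3.87 and 34.2 ± 2.07 CPM and by POLE2 at 24.7 ± 1.81 and 16.8 ± 1.01 CPM. In homologous recombination and crosslink repair 4 of 34 were higher and 16 lower (median -0.21). The checkpoint kinases CHEK1 and ATR were at -0.61 and -0.53, and BRCA2 at -0.82 ± 0.23 with overlapping libraries. FANCF, of the crosslink repair core, was the largest exception, at 18.1, 17 and 19.2 CPM in control and 37.4, 32.7 and 35.3 CPM in E5 cells (0.96 ± 0.085, adjusted p = 5.5e-08). Excision repair and translesion synthesis had 6 higher, 6 lower and 17 of 29 not called, with ERCC6 at 0.84 ± 0.082 and XPA at -0.57 ± 0.11. ERCC1, which cuts out platinum lesions, was at 76.1 and 77.5 CPM and did not pass the test.

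Among single genes that answer DNA damage, GADD45A and CDKN1A were lower and MDM2 was higher in E5 cells. GADD45A, a brake on the cell cycle, was at 320, 341 and 311 CPM in control and at 114, 130 and 136 CPM in E5 libraries (-1.36 ± 0.07, adjusted p = 6.8e-11). CDKN1A, the inhibitor p21, was at 58, 71.9 and 60.9 against 49, 56.8 and 50.8 CPM (-0.29 ± 0.088, adjusted p = 0.0091), a call that was lost without the control library numbered 2 (adjusted p = 0.078). MDM2, a ubiquitin ligase, was at 65 ± 5.66 and 93 ± 11.9 CPM (0.51 ± 0.093). Among ATF4 targets, which answer amino acid and secretory stress, 5 of 23 were higher and 11 lower (median -0.3). DDIT3, the factor CHOP, was at 149, 168 and 141 CPM in control and at 59.7, 73.2 and 75.1 CPM in E5 cells (-1.14 ± 0.088, adjusted p = 1.2e-08). ASNS was at -1.63 ± 0.33 on means of 2.79 and 0.881 CPM, from only 129 counts in control and 44 in E5 cells. Its mean FPKM, 79.6 and 44.4, was high for such CPM values and stood closer together. The reason for this gap was not tested, so the fold change is uncertain. STC2, a secreted glycoprotein, stood out in the other direction at 8.35 ± 0.574 and 48.4 ± 3.35 CPM (2.52 ± 0.092). HERPUD1, of endoplasmic reticulum quality control, was at -0.93 ± 0.07 and EDEM1 at 0.8 ± 0.077.

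Death regulators went both ways. In the BCL2 family 5 of 17 were higher and 10 lower (median -0.24). BCL2A1, a survival member, was at 21.2, 19.2 and 21.5 CPM in control and at 5.89, 5.84 and 5.54 CPM in E5 cells (-1.83 ± 0.12, adjusted p = 9.5e-10). The killers HRK and BBC3 were at -1.3 ± 0.18 and -1.02 ± 0.27, and BCL2L11, which encodes BIM, at 0.86 ± 0.078. Death receptors and caspase-8 complex genes had 5 of 19 higher (26.3%) and 6 lower (31.6%), near the shares of all tested genes. Their median was 0.07, which turned to -0.1 on log2(FPKM + 0.1). TNFSF10, the death ligand TRAIL, was at a mean of 0.078 CPM in control and 2.67 CPM in E5 libraries (ratio 41.3, counting interval 13.8 to 203). Its mean FPKM, 0.133 and 1.35, stood closer together. TNFRSF1A stood at 91.3 ± 5.11 and 267 ± 6.66 CPM, TNFRSF1B at 1.03 ± 0.0336 and 4.07 ± 0.882 CPM, and MLKL, which ruptures membranes in necroptosis, at 5.83 ± 0.416 and 1.64 ± 0.442 CPM. Ferroptosis regulators had 10 of 19 higher and 6 lower, with the lipid peroxidase GPX4 at 0.62 and ALOXE3 at -1.48 ± 0.15.

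Secreted inflammatory factors split evenly, 8 higher and 8 lower of 17 (median 0.08, but -0.08 and -0.06 on the FPKM scale). CXCL8, a neutrophil chemokine, was at 70.9, 71.3 and 77.2 CPM in control and at 21.2, 19.8 and 21.7 CPM in E5 libraries (-1.81 ± 0.086, adjusted p = 1.9e-11). IL11 was at 15.7, 17.1 and 15.2 against 0.982, 0.926 and 0.837 CPM (-4.11 ± 0.22, adjusted p = 4.9e-13). CCL2, a monocyte chemokine, ran the other way at 89.3, 99 and 81.5 against 347, 342 and 382 CPM (1.99 ± 0.071, adjusted p = 6.5e-13). None of the 3 overlapped. IL1B and LIF were at 2.72 and 1.89, TSLP at 3.36 ± 0.3, IL32 at -2.67 and CXCL5 at -3.18. Of the NF-kappaB subunits and feedback genes 6 of 19 were higher and 9 lower (median -0.21). RELB, a subunit of the non-canonical branch, was at 66.5, 79.2 and 63.2 CPM in control and at 38.1, 35.3 and 31.2 CPM in E5 cells (-1.0 ± 0.1, adjusted p = 2.8e-07), whereas BCL3, a nuclear partner, was at 16.4 ± 3.75 and 42.6 ± 0.842 CPM (1.35 ± 0.13). Complement genes counted 7 higher and 4 lower of 13, with the proteases C1R and C1S at 3.63 ± 0.37 and 2.91 ± 0.15.

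Hypoxia and glycolysis genes were higher in 18 of 29 cases and lower in 7, with a median of 0.6. VEGFA, the vascular growth factor, was at 74.7, 82.7 and 78.8 CPM in control and at 611, 638 and 638 CPM in E5 libraries (2.99 ± 0.057, adjusted p = 1e-15). SLC2A1, the glucose carrier, was at 28.8, 35.2 and 28.9 against 112, 111 and 98.9 CPM (1.78 ± 0.082, adjusted p = 1.3e-11). HIF1A stood at 268 ± 36 and 552 ± 71 CPM. All 3 were clear of overlap. From the same list ADM was at -1.11, NDRG1 at -0.66, ENO2 at -1.3 and HK1 at -0.61, so well-known hypoxia targets stood on both sides. TXNIP, which restrains glucose uptake, was at 229, 238 and 228 CPM in control and at 132, 126 and 128 CPM in E5 cells (-0.85 ± 0.061, adjusted p = 4.2e-09). ARRDC3, a related arrestin, was at 72.4 ± 4.97 and 291 ± 26.7 CPM (2.01 ± 0.081).

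Lipid genes were moderately higher. Cholesterol synthesis had 12 of 26 higher and 5 lower (median 0.22), with STARD4, a sterol carrier, at 3.34, 2.83 and 4.01 CPM in control and 30.8, 32.1 and 38.9 CPM in E5 cells (3.32 ± 0.16, adjusted p = 9.7e-12) and DHCR7 at 0.82 ± 0.079. Of fatty acid genes 13 of 22 were higher and 4 lower. SREBF1 was at 15.9 ± 2.98 and 43.1 ± 3.86 CPM, ACSL5 at 2.07 ± 0.571 and 10.7 ± 0.85 CPM, and the desaturases FADS1 and FADS2 were lower at -1.41 and -1.38. Liver X receptor targets included MYLIP at 2.01 ± 0.13 and ABCA1 at 1.69, but the lipid carriers APOE and APOC1 were at -1.7 and -2.22. Lysosomal genes had 11 of 27 higher and 5 lower, with TFEB at 1.02 ± 0.14 and ATP6V0D2 at -3.01 ± 0.35.

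Matrix proteins and their receptors were mostly higher in E5 cells, 21 of 28 collagens, laminins and other matrix genes against 4 lower (median 0.99). THBS1, thrombospondin, was at 118, 112 and 125 CPM in control and at 669, 642 and 600 CPM in E5 libraries (2.43 ± 0.065, adjusted p = 2.1e-14). TNC, tenascin C, was at 62.9, 63.8 and 67.7 against 326, 316 and 248 CPM (2.19 ± 0.084, adjusted p = 1.7e-12). LAMB1, a laminin beta chain, was at 60.2, 55.9 and 65.1 against 283, 282 and 274 CPM (2.21 ± 0.065, adjusted p = 5.5e-14). The groups were clearly apart for these. LAMA4 and SPARC, at 4.24 ± 0.37 and 4.32 ± 0.58, were near absent from control cells, and COL1A1, also the main fibroblast marker, was at 2.66 ± 0.162 and 9.47 ± 0.817 CPM. LOX, the collagen crosslinker, was the largest exception, at 14.5, 13.8 and 16.8 CPM in control and 0.672, 0.499 and 0.966 CPM in E5 cells (-4.38 ± 0.25, adjusted p = 3.2e-12), followed by LAMA1 at -1.95 and COL12A1 at -1.92. Of integrins and CD44, 10 of 15 were higher and 2 lower (median 0.76). ITGA4 was at 3.09, 1.84 and 2.73 against 50.5, 45.9 and 51 CPM (4.34 ± 0.17, adjusted p = 1.5e-13), ITGB8 at 6.03 ± 0.724 and 30.6 ± 5.61 CPM, and CD44 at 977 ± 24.3 and 1980 ± 172 CPM.

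Matrix metalloproteinases and their inhibitors, counted together, leaned the other way, with 10 of 17 lower and 4 higher (median -0.34). MMP10, stromelysin 2, was at 67.9, 71.9 and 74.9 CPM in control and at 2.33, 1.64 and 1.8 CPM in E5 libraries (-5.19 ± 0.15, adjusted p = 1.3e-15). MMP1, the interstitial collagenase, was at 39.7, 40.2 and 42.1 against 1.4, 1.71 and 1.09 CPM (-4.86 ± 0.18, adjusted p = 1.1e-14). Both were over 20-fold lower with no overlap. Their inhibitors differed in direction, TIMP1 at 114 ± 14.5 and 262 ± 6.73 CPM and TIMP2 at 68.4 ± 2.63 and 14.9 ± 0.376 CPM. SERPINE2, a protease inhibitor, was at 20.3 ± 0.41 and 139 ± 2.83 CPM.

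Of 18 keratins only 7 passed the filter on low counts, and all 7 were higher in E5 cells (median 1.76). Among them were KRT8 at 58.6 ± 6.89 and 183 ± 11 CPM, KRT18 at 367 ± 15.9 and 622 ± 45 CPM and KRT15 at 18.8, 20.7 and 18.5 against 101, 101 and 102 CPM (2.38 ± 0.065, adjusted p = 2.1e-14). KRT7 was at 2.54 ± 0.935 and 9.13 ± 1.11 CPM and KRT19 at 0.24 ± 0.248 and 1.79 ± 1.01 CPM. Junction and polarity genes did not share this: of 16 epithelial genes 2 were higher and 8 lower (median -0.28), the 2 being MUC1 (1.18 ± 0.23) and PKP3 (1.01 ± 0.27). MUC1 was at means of 1.78 and 3.7 CPM, and its mean FPKM, 1.92 and 2.63, stood closer together. Among mesenchymal genes 6 of 15 were higher and 2 lower, with S100A4 at 1.9 ± 0.25, TGFBI at 1.3 ± 0.14 and VIM, at 2090 and 2000 CPM, not called. Of 25 genes that mark the classical form of pancreatic tumours 8 passed the filter, with 2 higher (25%) and 3 lower (37.5%). GATA6 was at 12.3, 11.9 and 13.3 CPM in control and at 36.6, 36.7 and 39.8 CPM in E5 libraries (1.59 ± 0.1, adjusted p = 6.8e-10), and FOXA3 at -2.49 ± 0.41. Of 25 basal-like genes 10 passed the filter, with 6 higher and 3 lower (median 1.04), SCEL being among the 3.

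Of TGF-beta ligands, receptors and targets, 14 of 26 were higher (53.8%, against 26.7% of all tested genes) and 6 lower (median 0.44), with INHBA, which forms activin A, at 7.85, 5.36 and 7.69 CPM in control and 40.9, 44.4 and 51.7 CPM in E5 cells (2.75 ± 0.14, adjusted p = 3.1e-11) and BMP4 at 2.74 ± 0.29. For MAPK and AP-1 output 11 of 26 were higher and 8 lower (median -0.01, which turned positive, at most 0.05, when single libraries were left out). DUSP5, a phosphatase that shuts off nuclear ERK, was at 159, 201 and 185 against 30.9, 31.3 and 31 CPM (-2.55 ± 0.085, adjusted p = 2.6e-13), and EGR3 at 2.27 ± 0.26. The EGF receptor ligands divided, EGF at 3.44 ± 0.45 and EREG at 1.11 against HBEGF at -1.97 ± 0.084 and AREG at -1.87. EGF was at means of 0.221 and 2.67 CPM, and its mean FPKM, 0.31 and 0.897, stood closer together. Of YAP and TEAD genes 9 of 23 were higher and 10 lower, AMOT at -3.4 ± 0.5 and AMOTL1 at 1.47 ± 0.078. Wnt, Notch and hedgehog genes had 17 of 35 higher and 14 lower, with LEF1 at 3.32 ± 0.27, WNT5A at 2.43 ± 0.19 and the Notch target NRARP at -2.2. Of stemness-linked factors 8 of 16 were higher and 7 lower. G1 regulators had 6 of 21 higher (28.6%) and 7 lower (33.3%), near the shares of all tested genes. Among them CCND2 was at -0.93 ± 0.14 and CCNE2 at -0.83 ± 0.17.

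Ribosome genes divided by role. Of 28 cytosolic ribosomal proteins 15 were higher and none lower in E5 cells, though by little (median 0.17), as in RPL10 at 313 ± 18.6 and 404 ± 21 CPM and RPS23 at 623 ± 14.6 and 798 ± 11.4 CPM. In contrast, 1 of 28 ribosome biogenesis genes was higher and 14 were lower (median -0.15), NOLC1 standing at 759 ± 13 and 494 ± 17.8 CPM and UTP4 at 257 ± 9.15 and 169 ± 9.68 CPM. Mitochondrially encoded genes had 5 of 13 higher and none lower, with MT-ND3 at 0.48 ± 0.089 and MT-CO2 at 0.38 ± 0.062. Ribosomal protein genes have many pseudogenes, and the histone genes, 9 higher and 6 lower of 22 with H1-2 at 1.31 ± 0.073 and H3C2 at -0.72 ± 0.26, mostly lack poly(A) tails, so both depend on library and counting choices. Of 4 tested peptidylarginine deiminases, which convert arginine to citrulline, 3 were higher and none lower: PADI2 was at 22.1, 21.1 and 17.5 CPM in control and at 63.8, 62.4 and 57 CPM in E5 libraries (1.61 ± 0.08, adjusted p = 3.7e-11), and PADI3 at 1.27 ± 0.18.

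**Figure D4:**
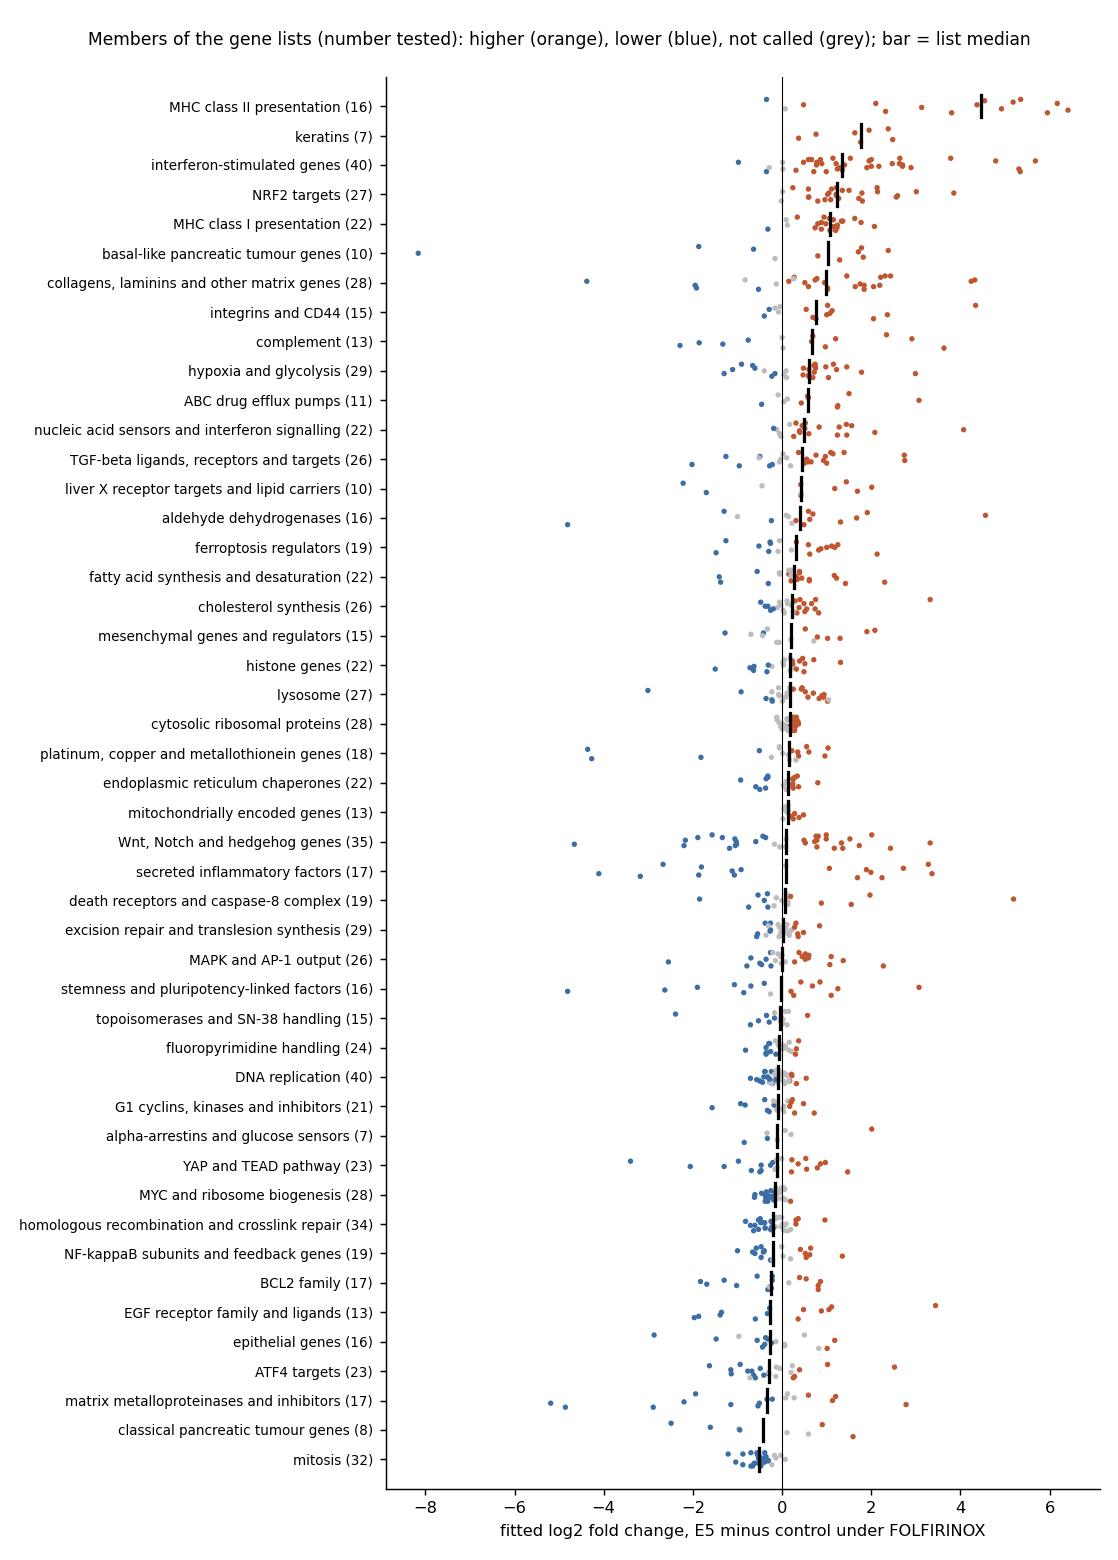
Fitted log2 fold changes of E5 over control cells under FOLFIRINOX (horizontal axis) for the tested members of gene lists with at least 7 tested genes, ordered by list median (black bar), with the number tested in brackets. Orange points were called higher, blue lower and grey neither. MHC class II genes have the highest median, 4.45, and mitosis genes the lowest, -0.52; the 2 members with 0 counts in control libraries are not drawn.

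The same contrast in vehicle-treated cells, in 6 other libraries, called 6934 genes (44.3%), and the difference between the contrasts was called for 4013 genes (25.7%). Of the 2331 genes at least 2-fold apart under FOLFIRINOX, 1307 were at least 2-fold apart in the same direction under vehicle, which is 56.1% of the FOLFIRINOX list and 67.1% of the 1949 genes of the vehicle list. Across the tested genes, which are not independent replicates, the fold changes had a Pearson r of 0.776. For 809 of the 2331 genes (34.7%) the difference between treatments was called, 662 were not called under vehicle, and 40 were called in the opposite direction there.

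Genes close to the diagonal of the treatment plot included HLA-DRA (6.17 under FOLFIRINOX, 6.71 under vehicle), CD74 (5.95 and 6.08), MMP10 (-5.19 and -4.8), THBS1 (2.43 and 2.56) and SLC2A1 (1.78 and 1.7), and for none of these 5 was the difference called. The interferon-stimulated list had a lower median under FOLFIRINOX (1.34) than under vehicle (2.11), and the difference was called for 22 of its 40 genes against the 25.7% of all genes. OAS1, at 2.23 and 13.4 CPM under FOLFIRINOX and 3.27 and 72.9 CPM under vehicle in control and E5 cells, had a difference of -1.85 (log2, adjusted p = 1.6e-05). HLA-B had one of -1.93 (adjusted p = 7.4e-09) with a control level of 73.9 CPM under FOLFIRINOX and 32.3 CPM under vehicle and an E5 level of 187 and 310 CPM. The NRF2 target list had medians of 1.22 under FOLFIRINOX and 1.01 under vehicle, with a median difference of 0.29, and the difference was called for 15 of 27 genes. PIR was at 8.4 and 68.1 CPM under FOLFIRINOX and 95.9 and 163 CPM under vehicle (difference 2.24 ± 0.1, adjusted p = 3.5e-10) and NQO1 at 165 and 979 against 369 and 1180 CPM, whereas AKR1B10, with the largest fold change of the list, had a difference of 0.43 that was not called (adjusted p = 0.55).

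Among protein-coding genes that reached 5 CPM in a library, the largest positive differences were those of PRKG1, a cyclic GMP-dependent kinase, CNTN1, a contactin, C1S, the complement protease, SNED1, an extracellular matrix protein, PADI2, a peptidylarginine deiminase, and FSTL5, at 3.3, 3.15, 2.9, 2.88, 2.59 and 2.5. PRKG1 and CNTN1 themselves were not called under FOLFIRINOX, at 0.29 (adjusted p = 0.24) and 0.06 (adjusted p = 0.83), and were at -3.02 and -3.1 under vehicle. The largest negative ones included IFI44L, an interferon-stimulated gene, with 2.47 under FOLFIRINOX and 7.23 under vehicle (difference -4.75, adjusted p = 0.0029), LIPG, a lipase, with 2.32 and 6.14 (-3.82), and MSC, a transcription factor, at 0.292 ± 0.0921 and 5.88 ± 1.05 CPM under FOLFIRINOX, whose difference of -4.55 turned to 0.58 on log2(FPKM + 1).

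Some genes changed sides. GADD45A was lower in E5 cells under FOLFIRINOX (324 and 127 CPM) and higher under vehicle (39.3 and 52.3 CPM), a difference of -1.77 (adjusted p = 1.2e-08). CXCL8 (-1.81 and 0.72), RELB (-1.0 and 0.86), DDIT3 (-1.14 and 0.35) and TXNIP (-0.85 and 0.98) did the same. PADI2 was higher under FOLFIRINOX (20.2 and 61.1 CPM) and lower under vehicle (466 and 237 CPM), a difference of 2.59 (adjusted p = 1.6e-10), as was SOX2, a pluripotency factor, at 1.1 and -0.83. Of the 40 genes at least 2-fold apart under FOLFIRINOX and called the opposite way under vehicle, 24 were lower under FOLFIRINOX, among them MFAP5 (-2.38 and 2.2) and BATF2 (-1.72 and 2.17), and 16 were higher, among them SUSD2 (2.5 and -1.11). MFAP5, BATF2, SUSD2, SOX2, DDIT3 and CXCL8 were singled out after their values were seen. Secreted inflammatory factors as a list had a median of 0.08 under FOLFIRINOX and 1.74 under vehicle, NF-kappaB genes -0.21 and 0.56, and ribosomal proteins 0.17 and -0.19.

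**Figure D5:**
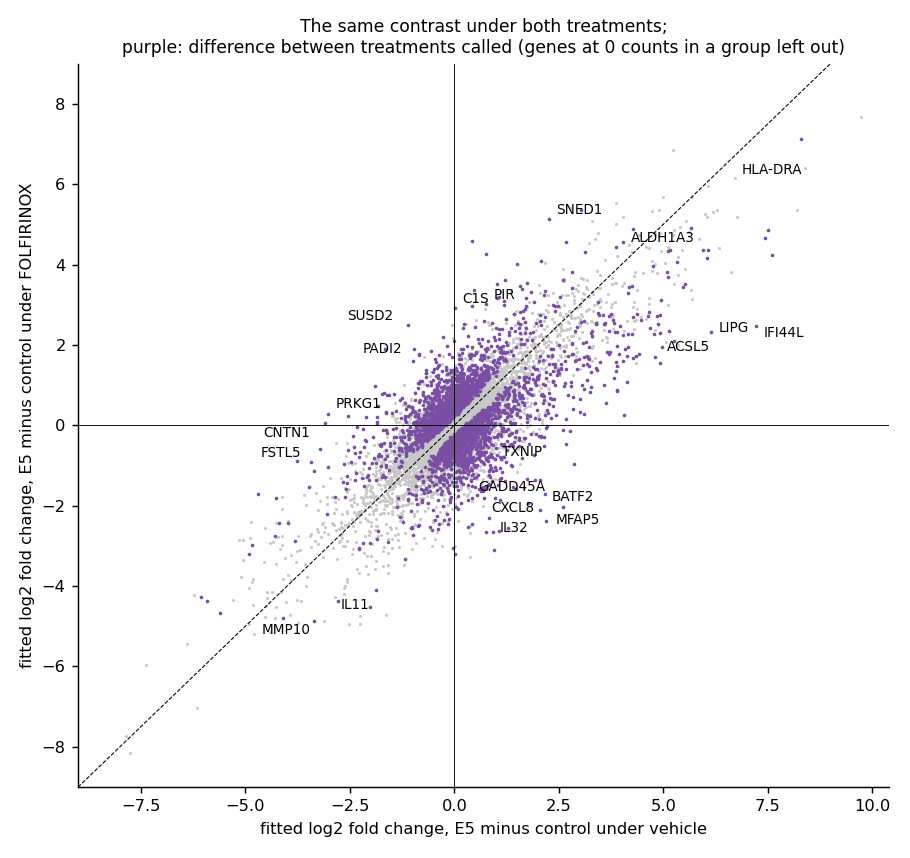
Fitted log2 fold change of E5 over control cells under vehicle (horizontal axis) and under FOLFIRINOX (vertical axis) for 15567 tested genes, without those at 0 counts in a group. Purple marks genes whose difference between treatments was called, and the dashed line marks equal fold changes. HLA-DRA and MMP10 lie near the line, SNED1 and PIR above it, and GADD45A and MFAP5 in the quadrant of opposite directions.

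Along the genome, fold changes leaned downward on a few chromosomes. Chromosome 10 had a median log2 fold change of -0.33 over 642 tested genes, with 336 (52.3%) lower and 86 (13.4%) higher in E5 cells, against 27.6% and 26.7% of all tested genes. Chromosomes 18 and 16 followed at -0.24 and -0.18, and chromosome 7 had the highest nuclear median at 0.12. Of 265 bins of 10 Mb with at least 20 tested genes, the lowest median, -0.61, lay on chromosome 10 between 60 and 70 Mb, where 30 of 45 genes were lower and 3 higher. Under vehicle the same bin stood at -0.63 and chromosome 10 at -0.38.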

How the data were processed

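RNA of KP4 cells was sequenced from libraries prepared with KAPA mRNA HyperPrep, per the labels. The authors deposited gene read counts from STAR (2.5.1b) on GRCh38, per the submitters' processing notes, in a file named as stranded. The deposited FPKM values and the deposited rlog values, on a log2 scale, carry no stated program, per the labels, and entered only as alternatives. Counts were normalised by TMM and tested with edgeR 4.0.16 (quasi-likelihood, glmQLFit and glmQLFTest, R 4.3.3) over all 12 columns as 4 groups, for 15636 genes kept by the filter on low counts, and p-values were adjusted by Benjamini-Hochberg. SEs were derived from the fit. Common BCV was 7.37%. The procedure was tested on simulated counts. limma 3.58.1 and DESeq2 1.42.0 served as alternatives. Column names were matched to the sample titles.

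Named genes were the extremes by fold and by CPM, the 2 largest changes of each list, the largest differences between treatments and a set of drug genes. Further list members given as examples were chosen after their values were seen. The members and gene lists were chosen with earlier results of these data known. Some genes and 1 gene list are not reported here. Floors and counting intervals (95%) cover counting error only.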

Additional observations from a re-analysis of the deposited data

Results flagged for a closer look

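For 70 of the named genes, chosen by the rules above, the E5 minus control contrast differed between the treatments. The test was that of the difference itself (edgeR, adjusted p under 0.05). Values are the log2 contrast under FOLFIRINOX minus that under vehicle. Further list members given as examples, such as CXCL8, DDIT3 and HLA-B, are not counted here. Differences of this kind were called for 25.7% of all tested genes.

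In 7 genes the contrast was called in opposite directions under the treatments: RELB at -1.86, GADD45A at -1.77, RPL10 at 0.66, DPYD at 1.35, PADI2 at 2.59, TXNIP at -1.83 and CDKN1A at -0.54. For DPYD the contrast under FOLFIRINOX was negative on both FPKM scales, at -0.26 and -0.25, and for CDKN1A its call was lost without the control library numbered 2 (adjusted p = 0.078). PRKG1 at 3.3 and CNTN1 at 3.15 were called under vehicle only.

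Elsewhere the contrast was more positive under FOLFIRINOX. The larger of these differences were those of C1S at 2.9, SNED1 at 2.88, FSTL5 at 2.5, C1R at 2.42, P2RY6 at 2.32, PIR at 2.24, S100A4 at 1.75, MME at 1.53, STARD4 at 1.49, WNT5A at 1.44, CPED1 at 0.95, ITGB8 at 0.91 and TFEB at 0.81. Smaller ones were SREBF1 at 0.79, ARRDC3 at 0.74, DHCR7 at 0.65, VEGFA at 0.63, BCL3 at 0.62, ALDH1A3 at 0.52, MT-ND3 at 0.51, GAPDH at 0.5, SLC29A1 at 0.48, RPS23 at 0.47, TXNRD1 at 0.46, MDM2 at 0.45 and PKM at 0.41. The smallest were those of ABCC1 at 0.4, EDEM1 at 0.38, SLFN11 at 0.33, FTH1 at 0.27, ENO1 at 0.26, ODC1 at 0.25 and LDHA at 0.22.

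More negative contrasts under FOLFIRINOX were led by IFI44L at -4.75, MSC at -4.55, NRXN3 at -4.31, LIPG at -3.82, LAMA4 at -3.35, CTSS at -3.16, ACSL5 at -2.63, IL11 at -2.25, BMP4 at -2.18, EGF at -2.04, HLA-F at -1.92 and TNFRSF1B at -1.92. Then came LOX at -1.6, MMP1 at -1.52, DUSP5 at -1.52, ASNS at -1.33, GDA at -1.18, HBEGF at -1.09, HERPUD1 at -1.0, ABCC2 at -1.0, BCL2A1 at -0.93, INHBA at -0.81, ALDH1A1 at -0.71 and ERCC6 at -0.56. The smallest were GATA6 at -0.44, UPP1 at -0.38, ABCG2 at -0.36 and ETS1 at -0.34. The value of ASNS rests on low counts and is uncertain, as given above. For MSC and NRXN3 the vehicle-treated control libraries had 0 counts, so the fitted difference depends on the prior count of the fit and is no bound. The differences of MSC, NRXN3 and LAMA4 turned positive on other scales, MSC at 0.58 and NRXN3 at 0.21 on log2(FPKM + 1), and LAMA4 at 0.04 on rlog values.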

How the results depend on the processing

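Across 16 other settings the number of genes called ran from 7253 to 8706. Fewer genes were called higher in E5 cells with limma on log2(FPKM + 0.1), 2605, and on log2(FPKM + 1), 2638, where 4648 and 4821 were lower. At least 2-fold calls came to 879 (472 higher, 407 lower) on log2(FPKM + 1) and 598 (416 higher, 182 lower) on rlog values, which are shrunken by construction. With total counts as the only scaling 3501 were higher and 5205 lower, at an all-gene median of -0.09. Leaving out single libraries gave 7629 to 8316 called genes. Deviations of same-numbered columns under FOLFIRINOX had correlations of -0.0553, 0.148 and 0.126, and those of differently numbered columns ran from -0.215 to 0.109. With 3 columns a group these values cannot settle whether the numbers pair the libraries. The fit with the number as a replicate block called 8145 (4028 higher, 4117 lower). DPYD reversed to -0.26 and -0.25 on the 2 FPKM scales. The difference between treatments reversed for NRXN3 (0.21 on log2(FPKM + 1), 0.05 on rlog), MSC (0.58 and 0.11) and LAMA4 (0.04 on rlog); the cause was not tested. Of 2496 recomputed values for 156 named genes, 2459 kept direction and call. Of 49 lists, 7 had a median that changed sign in some setting.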
